A study of Homo sapiens with 4 samples.

Results

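The enterocyte genes FABP1, FABP2, CTSE, VIL1, ALPI, DPP4, ANPEP, CDX1, CDX2 and HNF4A were followed on 4 two-colour oligonucleotide arrays of human colorectal cancer cell lines. Members were the probes whose gene symbol in the platform table was one of the 10 names, each probe kept on its own. By that rule 11 probes of 9 genes were found among 29640 probes that were not controls (30336 spots in all), where 13015 genes had a named probe. HNF4A had no probe by that symbol, and 2 probes that only the scanner files' descriptions name for it are shown beside them, which makes 13 probes.

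DLD-1 and HT-29 are established lines from colorectal adenocarcinomas. In each line, cells grown for 24 h and then exposed to 1 µM 5-aza-2'-deoxycytidine for 96 h were compared with untreated cells of the same line; the drug is a cytidine analogue that is built into DNA and traps DNA methyltransferases, so that methylation is lost as cells divide. The series looked for genes silenced by methylation. Each line had 2 arrays, array 1 with the treated RNA in Cy5 and array 2 with the dyes exchanged. The 2 arrays of a line carry the same pair of RNA extracts as far as the labels say, so a line was counted as 1 replicate, and the spread between its arrays is technical.

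Enterocytes and colonocytes absorb nutrients through a brush border of microvilli. Villin bundles the actin core of each microvillus, while intestinal alkaline phosphatase, dipeptidyl peptidase 4 and aminopeptidase N are enzymes anchored in its membrane. Inside the cell, fatty acid binding proteins carry lipids, and the homeobox factors CDX1 and CDX2 and the nuclear receptor HNF4A drive the intestinal gene programme. Cathepsin E, an aspartic protease of the endosomal system, is best known from gastric surface epithelium and is made in some intestinal tumours.

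Because the drug acts on methylated CpG sites, the 250 bases before the start of 4 members are printed from RefSeq (GRCh38.p14), 5' to 3' on the gene's strand, with each CpG in capitals. FABP1 and CTSE are shown because their probes had the largest ratios in HT-29, FABP2 as the intestinal-type paralogue of FABP1, and DPP4 as a member with many CpG sites.
FABP1 promoter, chr2:88128063-88128312, minus strand: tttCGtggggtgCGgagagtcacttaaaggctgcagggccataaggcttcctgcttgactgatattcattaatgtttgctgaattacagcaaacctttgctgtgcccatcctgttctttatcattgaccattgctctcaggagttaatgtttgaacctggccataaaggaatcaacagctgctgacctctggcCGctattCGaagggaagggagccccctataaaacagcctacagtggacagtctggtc
FABP2 promoter, chr4:119322139-119322388, minus strand: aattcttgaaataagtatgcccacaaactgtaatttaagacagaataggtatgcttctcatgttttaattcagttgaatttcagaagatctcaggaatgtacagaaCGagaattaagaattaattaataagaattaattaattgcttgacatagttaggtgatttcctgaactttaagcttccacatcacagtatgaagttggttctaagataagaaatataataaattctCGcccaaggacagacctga
CTSE promoter, chr1:206023896-206024145, minus strand: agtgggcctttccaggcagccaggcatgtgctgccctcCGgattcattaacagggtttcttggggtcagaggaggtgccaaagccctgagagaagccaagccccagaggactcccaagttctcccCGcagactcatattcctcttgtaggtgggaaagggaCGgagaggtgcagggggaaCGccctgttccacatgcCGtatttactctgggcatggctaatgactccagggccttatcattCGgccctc
DPP4 promoter, chr2:162074216-162074465, minus strand: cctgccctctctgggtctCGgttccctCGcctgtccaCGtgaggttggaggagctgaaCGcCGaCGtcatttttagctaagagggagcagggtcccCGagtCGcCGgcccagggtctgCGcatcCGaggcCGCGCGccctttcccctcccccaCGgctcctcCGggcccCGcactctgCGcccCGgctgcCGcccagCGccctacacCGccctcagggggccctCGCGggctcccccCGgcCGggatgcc

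The FABP1 window held 4 CpG sites, that of FABP2 2, that of CTSE 6 and that of DPP4 26. Over 35116 RefSeq promoters the median was 11 sites, with quartiles of 3 and 23. RefSeq windows were matched for 8 of the 10 members, 10 windows in all. ALPI had 5 sites, CDX2 had 10, both HNF4A windows had 8, and the windows of ANPEP had 9 and 26. Only the DPP4 window and 1 ANPEP window among these 10 lay above the median of all promoters. The arrays measured RNA, and methylation at these sites was not analysed here.

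**Figure D1:**
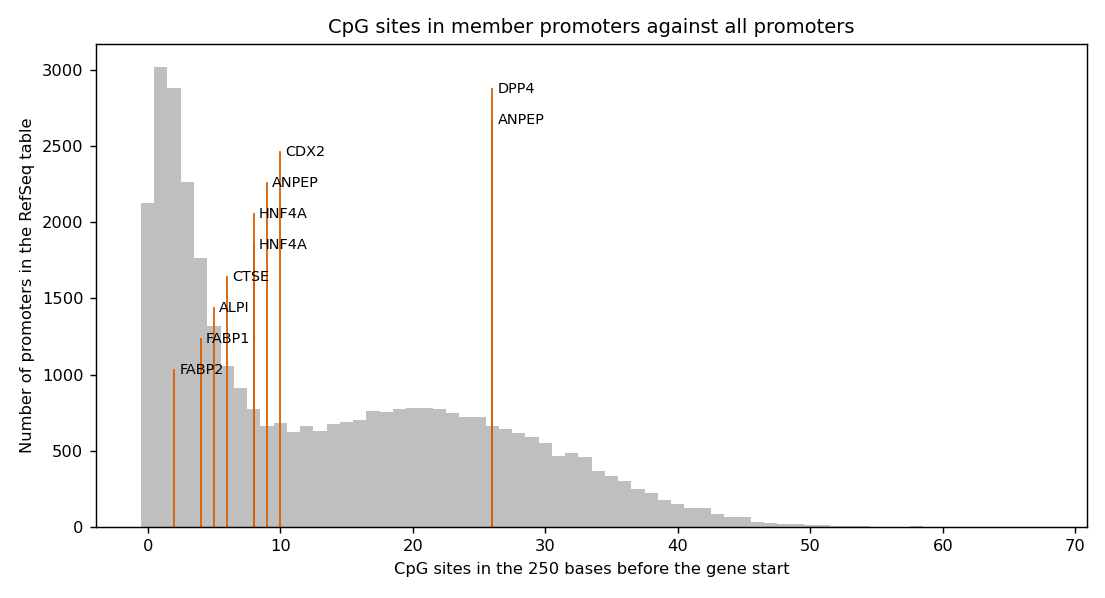
The grey bars count RefSeq promoters (vertical axis) by the number of CpG sites in the 250 bases before the gene start (horizontal axis), and each orange line marks a promoter window of a member, its height chosen only to separate the names. Among the 10 windows, those of FABP2, FABP1, ALPI and CTSE held 2 to 6 sites, and DPP4 and 1 ANPEP window held 26.

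Motifs were searched on both strands of these windows, as letters only. The FABP1 window held TATAAA at -31 (in 10.7% of all promoters), the CDX motif TTTATG at -89 on the opposite strand (9.6%), CAAAG, a core of HNF4 sites, at -156 on the opposite strand (42.1%), and GTTAAT, a core of HNF1 sites, at -108 (6.2%). In the CTSE window CAAAG lay at -172 and GTTAAT at -205 on the opposite strand. The DPP4 window held the GC box GGGCGG at -61 and -44, both on the opposite strand, a motif found in 42.6% of promoters. None of the 5 motifs was found in the FABP2 window.

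Between 22073 and 25787 probes per array had a channel above background, that is, an intensity more than 2 background SD over the local background. Of the negative control spots, 8.33% to 13.5% passed the same test in either channel. Of the spots without a probe 0% to 7.29% did, and of the spots marked as QC blanks 34.6% to 53.2%. Ratios are given as log2 of file channel 2 over channel 1 after loess. On array 1 of each line the labels list treated RNA as the second channel, so a positive value there is higher signal in treated cells. On array 2 the labels list treated RNA as the first channel, but the order of the file's channels on these arrays is not settled, and every file's channel 2 is read here as the treated RNA, with the labels' order beside each call. Under this reading the correlation of ratios was -0.45 within the DLD-1 pair of arrays and 0.00 within the HT-29 pair, across 18868 probes, which are not independent replicates. A probe with 1 sign on both arrays in one reading has opposite signs in the other, so a dye effect of the probe and an effect of the drug cannot be told apart in these ratios. For average signal, Spearman's rho was 0.36 between the HT-29 arrays and 0.63 between array 1 of HT-29 and array 1 of DLD-1.

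Of the 13 probes, 5 had a channel above background on all 4 arrays, as 63.8% of all probes did. On both DLD-1 arrays 5 did (71.6% of all probes), and on both HT-29 arrays 11 (76.5%). No member was called over both lines by limma with Benjamini-Hochberg adjustment over 18868 probes, against 0.143% of these probes called higher and 0.0318% called lower. None of the 5 members tested had an unadjusted p under 0.05, which 910 of all tested probes had, and none was called in the labels' order, where 0.668% of probes were called higher and 0.0477% lower. Within HT-29, the FABP1 probe and CTSE AGhsB210201 passed 2-fold upward on both arrays, 2 probes in all, against 0.115% of 22642 probes. None was at least 2-fold lower there (0.0132% of probes). Within DLD-1 none of the 5 measured members was at least 2-fold higher (0.113% of 21197 probes) or lower (0.00944%). Since 1 line is 1 replicate, these counts within a line carry no test. Members were also chosen with earlier results of these data known, so their counts beside the shares of all probes do not measure enrichment. In the labels' order no member was 2-fold changed on both arrays of either line, where the shares of all probes called higher were 0.305% in HT-29 and 0.368% in DLD-1, and those called lower 0.00442% and 0.0142%.

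**Figure D2:**
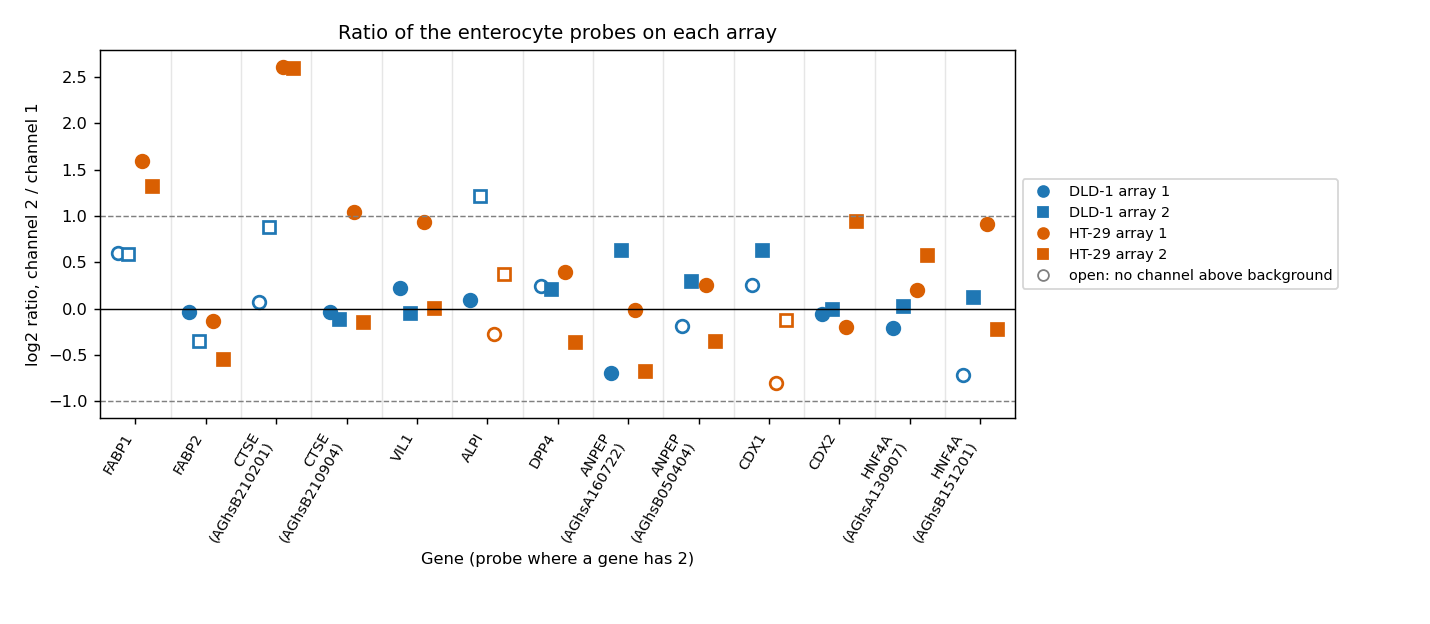
The log2 ratio of channel 2 over channel 1 (vertical axis) is plotted for each of the 13 probes (horizontal axis) on each array, in blue for DLD-1 and orange for HT-29, with circles for array 1, squares for array 2, and open symbols where neither channel was above background. Both HT-29 points of FABP1 (1.59 and 1.32) and of CTSE AGhsB210201 (2.61 and 2.60) lie above 1, and the other probes do not have both points of a line above 1.

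FABP1, the liver-type carrier of fatty acids in absorptive cells and liver, had the larger ratio of the lipid carriers. In HT-29 its background-subtracted intensity was 257 in channel 1 and 1362 in channel 2 on array 1, and 442 and 1604 on array 2. The brighter channel was channel 2 on both arrays, and channel 1 was above background on array 2 but not on array 1. The log2 ratios were 1.59 and 1.32, with a mean of 1.46 ± 0.19 (SD over 2 arrays). Since channel 1 was measured on array 2 alone, the ratio of array 1 rests on an untreated signal not above background and no fold over both arrays is given. In the labels' order the values were 1.59 and -1.32 and the mean was 0.13 ± 2.06. The local background of channel 1 at the array 1 spot was 618, above that array's median of 359. With each array's median background in place of the local one the ratios were 1.22 and 1.44. With block medians set to 0 they were 1.75 and 1.01, so in these settings the probe stayed above 1 on both arrays. The deposited log2 ratio was 1.69 on array 2 and had no value on array 1. With both channels required above background on both arrays, neither FABP1 nor CTSE AGhsB210201 enters the comparison.

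In DLD-1 the FABP1 spot had 166 and 582 in channels 1 and 2 on array 1, and -4.97 and 36.4 on array 2. Neither channel was above background on either array, so no fold is given. In bulk RNA, fewer cells with a transcript and less RNA per cell cannot be told apart.

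FABP2, the intestinal-type paralogue, had no such ratio. Its HT-29 intensities were 1728 and 1587 on array 1 and 3201 and 2634 on array 2, and the log2 ratios were -0.13 and -0.54 (mean -0.33 ± 0.29, SD over 2 arrays). Channel 2 was slightly lower on both arrays. In DLD-1 the FABP2 spot was bright on array 1, at 4174 and 4778, with a log2 ratio of -0.04. On array 2 it was below the local background in both channels, at -70.5 and -244. The same extracts thus gave average log2 signals 5.26 apart, and the DLD-1 level of FABP2 rests on 1 array.

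CTSE was read by 2 probes that did not behave alike. The probe AGhsB210201 gave -132 in channel 1 and 556 in channel 2 of HT-29 array 1, and -17.9 and 1272 in those of array 2. Channel 2 stood above background on both of these arrays and channel 1 on neither. On array 2 the excess of channel 2 was 2.58 background SD, near the cut of 2. On that array 53.2% of QC blanks, 11.5% of negative control spots and 0% of spots without a probe passed this cut in either channel. The deposited log2 ratio had no value for this probe on any array. The log2 ratios were 2.61 and 2.60. With channel 1 raised to the level of the dimmest probes above background, the difference was 2.82-fold (mean normalised log2 level 9.97 against 8.48). The background test depends on each spot's own background SD, so 8.48 is not an upper limit for channel 1. No lower bound on the fold is therefore given. The probe was 1 of 4 in HT-29 counted as switched on, 0.0177% of probes measured there. That count needed channel 2 above background on both arrays, channel 1 on neither, and a ratio of at least 2-fold on both. In the labels' order the mean log2 ratio was 0.00 ± 3.68, since the sign turns on array 2. In DLD-1 the intensities were 32.2 and 88.3 on array 1 and -25.2 and 56.0 on array 2, none above background. No member was switched on in DLD-1, as 0.0236% of probes were.

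The other CTSE probe, AGhsB210904, was bright in both channels on 3 of the 4 arrays. The DLD-1 arrays gave 5631 and 6418 (array 1) and 4666 and 3619 (array 2), and the HT-29 arrays 272 and 934 (array 1) and 4670 and 4885 (array 2). HT-29 array 1 stood apart from the others in both channels. The log2 ratios were -0.04 and -0.11 in DLD-1 and 1.04 and -0.14 in HT-29, so the ratio seen on HT-29 array 1 was not seen on array 2. Over both lines the mean was 0.19 (SE 0.221, limma adjusted p = 0.963), and without HT-29 array 1 it was -0.11. The SE is pooled and the same for every probe tested. Which of the CTSE probes reports the transcript was not tested, as no probe sequences were used here.

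**Figure D3:**
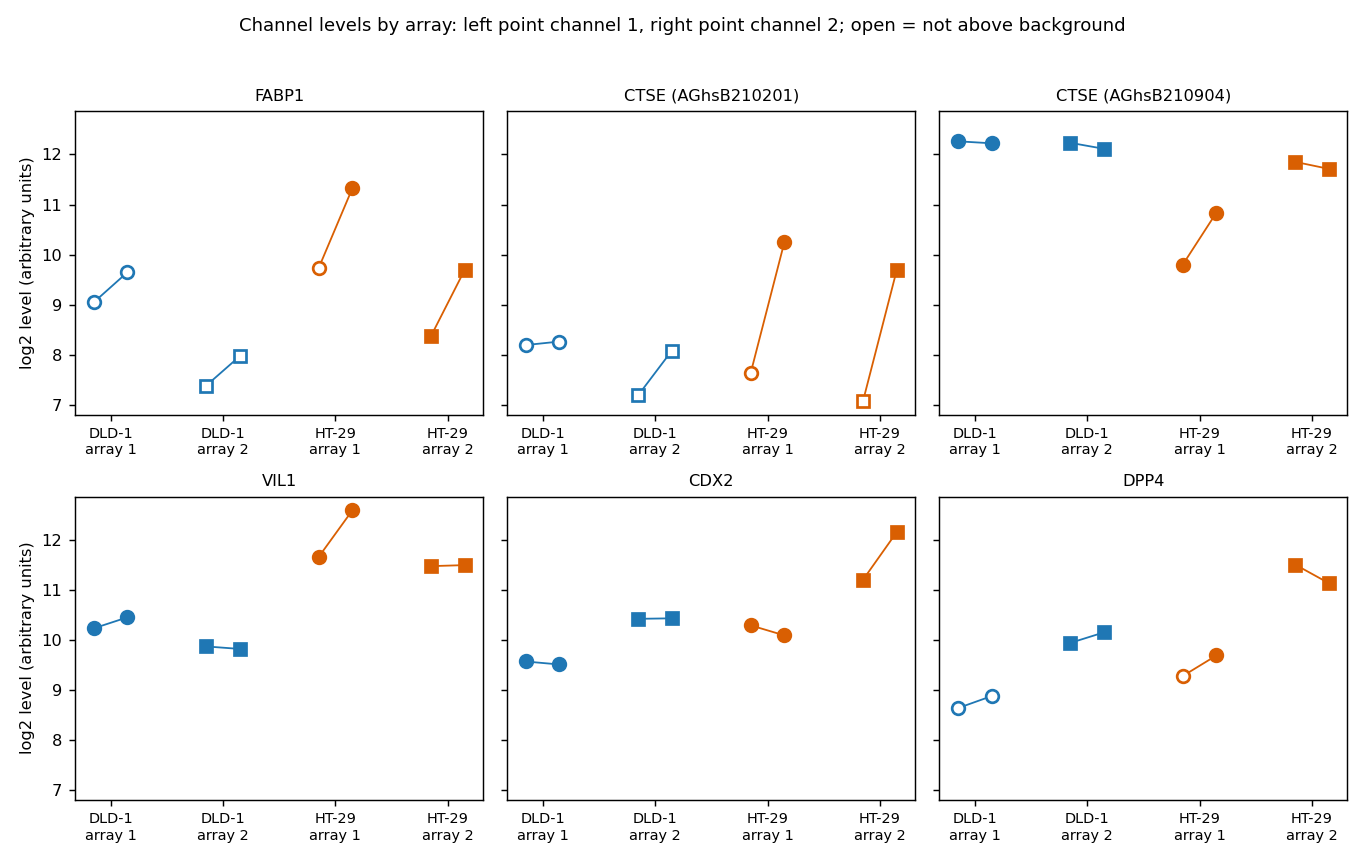
Normalised log2 level in arbitrary units (vertical axis) of channel 1 (left point) and channel 2 (right point) on each array (horizontal axis) for FABP1, both CTSE probes, VIL1, CDX2 and DPP4, with a line joining the channels of an array and open points for channels not above background. In HT-29, FABP1 goes from 9.73 to 11.32 on array 1 and from 8.38 to 9.70 on array 2, and CTSE AGhsB210201 from 7.64 to 10.25 and from 7.09 to 9.70, while CTSE AGhsB210904, VIL1 and CDX2 have a steep line on only 1 of the HT-29 arrays.

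VIL1, which encodes villin, was measured in both channels on all 4 arrays. In DLD-1 its channels 1 and 2 gave 655 and 1194 (array 1) and 813 and 606 (array 2), and in HT-29 they gave 1933 and 3736 (array 1) and 3822 and 4600 (array 2). Every HT-29 channel was brighter than every DLD-1 channel. The log2 ratios were 0.22 and -0.05 in DLD-1 and 0.93 and 0.01 in HT-29. Array 1 of HT-29 held the only ratio near 1, and the mean over both lines, 0.28 (SE 0.221), was not called (limma adjusted p = 0.963).

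None of the member hydrolases (ANPEP, DPP4 and ALPI) had a 2-fold ratio with 1 sign on both arrays of a line. ANPEP encodes aminopeptidase N, which trims amino acids from peptide ends. Its probe AGhsA160722 had log2 ratios of -0.69 and 0.63 in DLD-1, opposite in sign, and -0.01 and -0.67 in HT-29 (both lines -0.19, SE 0.221, limma adjusted p = 0.963). Without DLD-1 array 1 the value over both lines was 0.14. The second ANPEP probe, AGhsB050404, was dim on array 1 of HT-29, at 134 and 288, and bright on array 2, at 10890 and 7465. Its log2 ratios there were 0.25 and -0.35. The same extracts thus gave an average log2 signal 3.56 higher on array 2.

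DPP4, which cleaves dipeptides from incretins and other peptides, showed the same kind of gap. Its HT-29 intensities were 124 and 325 (array 1) and 4050 and 3744 (array 2), with log2 ratios of 0.40 and -0.36. In DLD-1 it was above background only on array 2, at 872 and 833 with a ratio of 0.21. ALPI, which removes phosphate groups in the gut lumen, was above background only on DLD-1 array 1, at 1555 and 2155 with a log2 ratio of 0.09. ALPI has close relatives among the placental-type phosphatases, so this signal may include theirs.

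Among the transcription factors, CDX1 was above background only on DLD-1 array 2, at 221 and 332 with a log2 ratio of 0.63. CDX2, the factor that sets intestinal identity, was measured on all 4 arrays. Its DLD-1 intensities were 322 and 505 (array 1) and 1278 and 1087 (array 2), and its HT-29 intensities 465 and 497 (array 1) and 2965 and 6951 (array 2). The log2 ratios were -0.06 and 0.00 in DLD-1 and -0.20 and 0.95 in HT-29, where only array 2 had an unequal pair. The mean over both lines was 0.18 (SE 0.221, limma adjusted p = 0.963) and -0.30 in the labels' order (adjusted p = 0.694). Without HT-29 array 2 it was -0.11.

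The HNF4A probe AGhsA130907 was above background in both channels on all 4 arrays, with log2 average signals of 13.30 and 12.82 in DLD-1 and 12.84 and 12.75 in HT-29. Its log2 ratios were -0.21 and 0.03 in DLD-1 and 0.20 and 0.58 in HT-29. The mean over both lines was 0.15 (SE 0.221, limma adjusted p = 0.963), -0.16 in the labels' order and -0.02 with block medians set to 0. The second HNF4A probe, AGhsB151201, had 0.91 and -0.22 in HT-29, opposite in sign.

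Across the 11 members measured on both HT-29 arrays, 6 had the same sign on both, against 56.4% of all such probes. In DLD-1 this was 1 of 5, against 31.9%. The median log2 ratio of the measured members was 0.38 in HT-29 and -0.03 in DLD-1, beside 0.00 and -0.05 for all probes. As members were chosen with earlier results known, these medians do not measure enrichment either. None of the 5 members measured on all 4 arrays differed between the lines in its response by the rule used for all probes (at least 2-fold in the difference with no overlap between arrays), which called 1.17% of probes higher and 0.578% lower in HT-29. The other 8 probes, FABP1 and CTSE AGhsB210201 among them, were not compared, as they were not above background on every array.

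Levels were compared between the lines within a probe, as log2 average spot signal, for the same 5 members. VIL1 was at 10.34 and 9.85 on the DLD-1 arrays and 12.12 and 11.48 on the HT-29 arrays, a difference of 1.71 with no overlap. Leaving out each array in turn gave 1.39 to 2.03. CTSE AGhsB210904 was lower in HT-29, at 10.32 and 11.78 against 12.24 and 12.17, a difference of -1.16. Leaving out array 1 of HT-29 made it -0.42 and leaving out array 2 made it -1.89, so its size rests on which HT-29 array is used. Of the 5 members compared, 1 was thus called higher and 1 lower, against 5.16% and 8.01% of all probes, and with 1 replicate a line there is no test. Among these 5, the 2 DLD-1 arrays differed at least 2-fold in average signal for 0 and the 2 HT-29 arrays for 2, where 26.2% and 45.3% of all tested probes did. Over all 13 probes, dim ones included, 7 did so in each line.

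**Figure D4:**
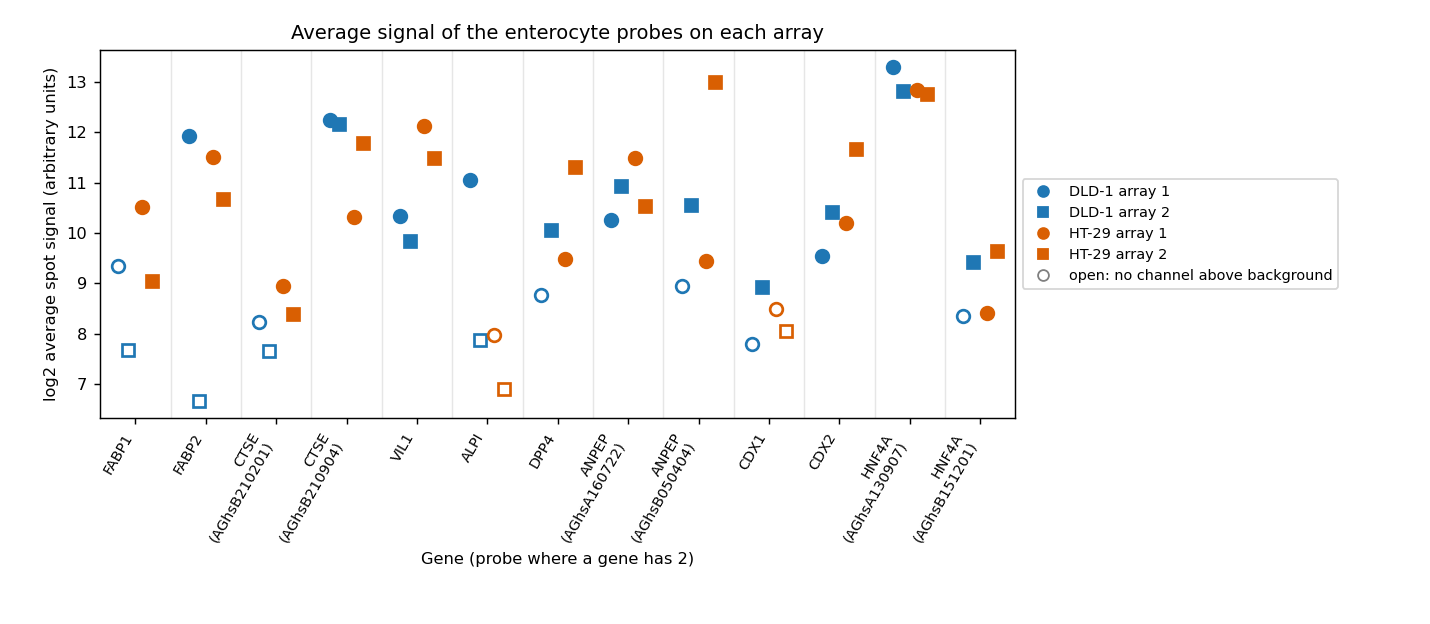
Log2 average spot signal in arbitrary units (vertical axis) of the 13 probes on each array, with the colours and symbols of the ratio plot. VIL1 has its 2 HT-29 arrays (12.12 and 11.48) above both DLD-1 arrays (10.34 and 9.85), whereas FABP2 in DLD-1 and ANPEP AGhsB050404 in HT-29 have arrays of 1 line 5.26 and 3.56 apart.

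By its log2 ratios on the 2 HT-29 arrays, taken as they stand, FABP1 lay nearest to GAGE7, a cancer-testis antigen gene (Euclidean distance 0.20), HSPA5, the endoplasmic reticulum chaperone BiP (0.23), and CD55, a complement regulator (0.31), of 12017 named probes. No neighbours are given for CTSE AGhsB210201, whose channel 1 was not above background on either HT-29 array. CTSE AGhsB210904, over 4 arrays and 10306 probes, lay nearest to TTR, COXFA4 and ADAM33 at 0.09, 0.11 and 0.14.

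Other genes of the enterocyte programme were read from lists by role. No probe of any list was called by limma over both lines, and within the lines 1 probe was at least 2-fold changed with 1 sign on both arrays. This was KRT20, a keratin of differentiated colonocytes, with log2 ratios of 2.26 and 1.14 in HT-29 (mean 1.70 ± 0.79, SD over 2 arrays, 3.25-fold) and -0.51 and -0.14 in DLD-1. The call was lost with block medians set to 0 (2.10 and 0.76), with median centring alone (2.25 and 0.83), with the deposited log2 ratio (2.59 and 0.82) and in the labels' order.

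Of the brush border structure probes, 14 were measured in HT-29, with a median log2 ratio of 0.23, and 13 in DLD-1, with a median of -0.03. The largest line mean there was that of EZR, encoding ezrin, which links actin to the membrane (0.59 and 0.59 in DLD-1), and the smallest that of ESPN, an actin bundler (0.42 and -2.07 in DLD-1). Of the brush border hydrolases, 13 were measured in HT-29 (median -0.26) and 11 in DLD-1 (median -0.02). MEP1A, a meprin subunit, had 0.72 and 0.27 in HT-29, and ENPEP, aminopeptidase A, had -0.24 and -1.92 in DLD-1.

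The lipid uptake and lipoprotein list had medians of 0.17 over 11 HT-29 probes and -0.11 over 9 DLD-1 probes. ACSL5, an acyl-CoA synthetase, held both its extremes, with 1.78 and 0.42 in HT-29 and -0.31 and -1.29 in DLD-1. Its channel 1 was above background on only 1 of the HT-29 arrays. The fatty acid binding family beyond FABP1 had medians of -0.18 (7 probes) in HT-29 and -0.04 (5 probes) in DLD-1. FABP5, the epidermal-type relative, had the smallest line mean there, with 0.15 and -1.04 in HT-29. The solute and ion transport list had medians of 0.08 (16 probes) and -0.01 (14 probes). ABCG2, an efflux pump, had 1.40 and 0.41 in HT-29, and S100G, a calcium carrier, had -0.71 and -0.49 in DLD-1.

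The cathepsins and other aspartic proteases had medians of -0.12 (17 probes) in HT-29 and 0.10 (15 probes) in DLD-1, so the CTSE AGhsB210201 ratio was not shared by the list. CTSL had 1.01 and -0.07 in DLD-1, and CTSV had -0.93 and -0.31 in HT-29. The phosphatase and peptidase relatives had medians of 0.07 (10 probes) and 0.01 (11 probes), with ERAP1 at 1.14 and 0.07 in DLD-1 and NPEPPS at -0.57 and -0.45 in HT-29. The intestinal transcription factors had medians of 0.16 (21 probes) and 0.06 (19 probes). HES1, a Notch target that favours the absorptive fate, had 1.06 and 0.49 in HT-29, and RXRA, a partner of nuclear receptors, had -1.68 and 0.57 in DLD-1. The colonocyte markers, KRT20 included, had medians of -0.04 (8 probes) in HT-29 and -0.24 (7 probes) in DLD-1, so the KRT20 ratio was not shared by that list either. MS4A12 had the smallest line mean, with 0.09 and -1.26 in DLD-1.

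Epithelial markers (EPCAM, CDH1 and keratins) were above background on all 4 arrays at 6 of 6 probes. Markers of cells that the labels do not name passed the same test at 8 of 11 fibroblast probes, 3 of 4 leukocyte probes, 8 of 16 hepatocyte probes and 10 of 12 gastric surface probes, beside 63.8% of all probes. Most of the gastric surface probes were for MUC5AC. The goblet list had 2 of 5 and the crypt list 1 of 5. Signal above background was thus also seen at markers of cells that the labels do not name, and alone it was not taken to mark a cell type. No probe of these lists was at least 2-fold changed with 1 sign on both arrays of a line. TFF1, a gastric surface peptide, had log2 ratios of 1.07 and 0.45 in HT-29, and GKN1, of the same list, had -0.52 and -1.22.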

How the data were processed

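RNA of DLD-1 and HT-29 cells was amplified and coupled to Cy3 or Cy5, per the labels' protocols, and hybridised on 4 arrays. The deposited scanner files give foreground, local background and background SD for each spot as intensity on a linear scale; the authors' log2 ratio in the deposited series table is log2 of channel 2 over channel 1 (the scanner files' ratio with its sign turned, column medians 0.00 on each array), and the scanner files' ratio served only as an alternative. The scanner is not given in the sources used here.

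Values were recomputed in R 4.3.3 with limma 3.58.1 (normexp, offset 50, then 1 global loess curve per array; Aquantile for levels), after leaving out 49 probes marked bad on some array. Probes were compared where, on every array used, at least 1 channel was over 2 background SD brighter than its local background. Each line's 2 arrays gave 1 mean, and both means were tested against 0 in limma (lmFit, eBayes) with Benjamini-Hochberg adjustment at 0.05. The fit gave every probe the same SE of 0.221, pooled over probes. A p-value therefore follows the size of the mean over both lines, and does not measure the probe's own spread between these lines. Within a line, calls needed a log2 ratio of 1 or more, or of -1 or less, on both arrays. The limma step was run on simulated data with independent noise on each array and the same shift on all 4. That simulation did not include a dye effect, an exchanged channel order or correlated arrays, so it does not cover these features of the data. Named were all members, genes of the related lists called by either rule, and otherwise the genes with the largest and smallest line mean of each related list. Of the marker lists, such extremes were given only for the gastric surface list. The 3 nearest probes for FABP1 and CTSE were also named, except for the CTSE probe whose channel 1 was not above background in HT-29. Of these, 1 gene is not reported here. Members and lists were chosen with earlier results of these data known. Alternatives were the labels' channel order, background-subtracted intensities, median centring, block medians, the array median background, stricter and no filters, the deposited log2 ratio and each array left out. Promoter sequences came from RefSeq.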

Additional observations from a re-analysis of the deposited data

Results flagged for a closer look

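Of the 135 related-list and marker probes measured on all 4 arrays, 12 had 1 sign on both arrays of one line and the opposite sign on both arrays of the other, as 7.41% of all tested probes had. The genes of the related lists whose ratios are given above include 2 of these. For KRT20 the HT-29 mean log2 ratio exceeded the DLD-1 mean by 2.03 (HT-29 2.26 and 1.14, DLD-1 -0.51 and -0.14). For ACSL5 the difference was 1.90 (HT-29 1.78 and 0.42, DLD-1 -0.31 and -1.29). Channel 1 of ACSL5 was above background on only 1 of the HT-29 arrays, and the deposited log2 ratio had no value on HT-29 array 1. Neither difference was tested, since a line is 1 replicate. With block medians set to 0, KRT20 had -0.82 and 0.24 in DLD-1 and ACSL5 had 2.24 and 0.11 in HT-29.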

How the results depend on the processing

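All counts in this paragraph are over all probes, both directions together. No paired analysis was possible because the 2 arrays of a line share their extracts and the replicate numbers mark only the dye orientation. As reported, 33 probes were called over both lines, 26 within DLD-1, 29 within HT-29, 330 for a different response, 9 as switched on, 1 in the related lists and 2484 for a level. In the labels' channel order the first 6 of these became 135, 81, 70, 528, 32 and 0. With deposited background-subtracted intensities the first 5 became 12, 54, 58, 722 and 20. With block medians set to 0, both lines gave 4, HT-29 16, the response 156, switched on 5 and the related lists 0. Median centring alone gave 0 in the related lists. With both channels required above background, DLD-1 gave 9, HT-29 17, the response 145 and levels 1588. With no filter, both lines gave 56, DLD-1 71, HT-29 56, the response 1038, the related lists 2 and levels 4843. The deposited log2 ratio gave 0 switched on and 0 in the related lists. Leaving out each array in turn gave 1 to 874 over both lines, 26 to 1628 within DLD-1, 29 to 1367 within HT-29, 493 to 3367 for the response, 63 to 461 switched on, 4 to 11 in the lists and 4118 to 7746 for levels; a line left with 1 array then needs only that array to pass. Of the 5 measured members' line means in DLD-1, 1 turned sign in the labels' order, 3 under another background or centring and 4 when an array of that line was left out. In HT-29 these were 5, 1 and 5 of 11, with FABP1 and CTSE AGhsB210201 not among them (0.13 and 0.00 in the labels' order). Over both lines the sign turned for CDX2 (-0.30) and HNF4A AGhsA130907 (-0.16) in the labels' order, the latter also with block medians set to 0 (-0.02), and, over arrays left out in turn, ANPEP AGhsA160722 (-0.52 to 0.14, positive without DLD-1 array 1), CTSE AGhsB210904 (-0.11 to 0.48, negative without HT-29 array 1) and CDX2 (-0.11 to 0.46, negative without HT-29 array 2). The cause was not tested. The array median background was added after seeing the data. Signal over background limits 8 of the 13 probes, which lacked it on some array.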
